A study of Homo sapiens with 6 samples.

Results

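Mitochondrial fatty acid oxidation was read here through 10 genes, taken by symbol: the carnitine shuttle enzymes CPT1A and CPT2, the acyl-CoA dehydrogenases ACADM and ACADVL, the trifunctional protein subunits HADHA and HADHB, the matrix thiolase ACAA2, and ETFA, ETFB and ETFDH of the electron transfer flavoprotein system. Each symbol matched 1 row of a count table of 23827 genes, and all 10 were among the 15474 genes tested. Messenger RNA came from A549, a cell line established from a human lung adenocarcinoma. Cells of the treated group spent 24 h in medium with 20 mM lactic acid, and control cells received phosphate-buffered saline (PBS) in the same volume for 24 h. Both groups held 3 libraries (PBS 1 to PBS 3 and lactic acid 1 to lactic acid 3), which the labels call biological replicates, and neither carried a genetic change or a further agent. Lactic acid supplies protons as well as lactate, and the design cannot tell these apart.

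Fatty acids enter the mitochondrial matrix as carnitine esters, are turned back into acyl-CoA, and are then shortened by a repeating cycle of dehydrogenation, hydration, a further dehydrogenation and thiolysis. The acyl-CoA dehydrogenases pass their electrons to a soluble flavoprotein, a dimer of ETFA and ETFB, and ETFDH in the inner membrane hands them on to ubiquinone. Entry is governed at CPT1, which malonyl-CoA, the building block of fatty acid synthesis, inhibits.

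The response to lactic acid was small and uneven across the pathway. Of the 10 genes, 4 fell (ETFB, ACADVL, CPT1A and ACAA2) and 0 rose at an adjusted p under 0.05 in edgeR's quasi-likelihood test. Over all tested genes, 16.7% fell and 18.7% rose. These are 2584 falls and 2892 rises on counts, while limma on log2(FPKM + 1), with its own filter, gave 2533 and 1803 among 12145 genes, and counts scaled by library totals alone gave 2939 and 2528. Without adjustment, p was under 0.05 for HADHA and HADHB, 2 of the 3 genes with a positive value, and DESeq2 and limma-voom gave 4 falls and 0 rises. The median log2 fold change was −0.093 over the 10 genes, against 0.0024 over all genes tested. In CPM, counts scaled to library size, every lactic acid library lay below every PBS library for 4 of the 10 genes and above for 2, while these shares were 23.1% and 24.4% of all genes tested. RNA was taken from whole cultures, so fewer cells making a transcript and less transcript per cell cannot be told apart.

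Library totals ran from 33492831 to 42938870 counts, and mitochondrially encoded genes held 8.88% to 10.6% of them. All 8 listed epithelial and A549 markers were counted, with a summed level of 8470 to 8901 CPM in PBS and 7572 to 7793 CPM in lactic acid; 3 rose and 4 fell. The keratin KRT8, the only marker of these not called, lay between 1783 and 1964 CPM in all 6 libraries. KRT18, EPCAM, CDH1 and ALDH1A1 fell, with log2 fold changes of −0.20, −1.01, −0.77 and −0.32. KRT19, AKR1B10 and AKR1C1 rose, with 0.18, 0.29 and 0.86. Of 12 markers of other cell types, 3 (CD3E, CDH5 and ADIPOQ) had 0 counts in every library and the leukocyte gene PTPRC at most 2. Their summed level, mostly COL1A1 and CD68, was 144 to 163 CPM in PBS and 107 to 117 CPM in lactic acid, and all 4 that were tested fell. The part of these markers in the results below was not tested.

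**Figure D1:**
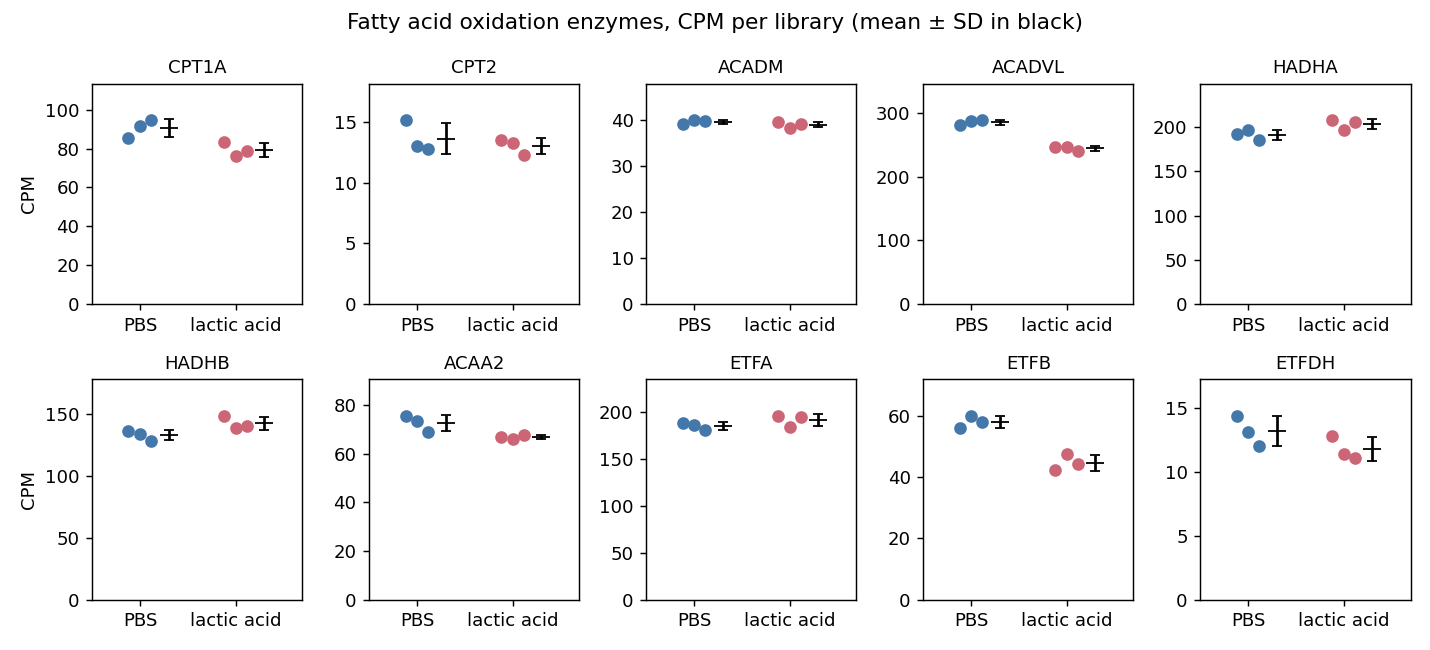
CPM of each of the 10 enzymes (vertical axes, from 0) in the 3 PBS and 3 lactic acid libraries; points are libraries, and black marks are the mean ± SD of 3. ETFB had the largest fold difference, at 56.0 to 60.0 CPM in PBS and 42.2 to 47.5 CPM in lactic acid, while ACADM lay between 38.3 and 39.9 CPM throughout.

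Transcript levels differed widely between the steps. In FPKM, the unit scaled for gene length and depth that the authors deposited, ACADVL was highest in PBS at 125 ± 5.10 (SD, n = 3), followed by ETFA at 98.6 ± 3.01. HADHA and HADHB were level with each other at 61.6 ± 3.04 and 61.6 ± 1.22, and their libraries overlapped. ETFB followed at 55.7 ± 2.40, ACAA2 at 21.6 ± 1.45, CPT1A at 16.7 ± 1.10 and ACADM at 15.4 ± 0.976, the last pair overlapping. CPT2 at 4.27 ± 0.299 and ETFDH at 3.89 ± 0.206 were lowest and overlapped, so the enzymes that return acyl groups to CoA and that deliver electrons to ubiquinone had the scarcest transcripts of the set. In lactic acid ACADVL, at 104 ± 1.49 FPKM, overlapped ETFA, at 102 ± 10.3, and every CPT1A library lay below every ACADM library. The order was otherwise kept apart from HADHA and HADHB, which again overlapped. For ETFA the gene length implied by counts and FPKM varied by 21.4% between libraries, against 3.25% to 11.5% for the other 9 genes, so its FPKM values carry an extra spread that its counts do not.

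The genes for the 2 subunits of the trifunctional protein lie head to head on chromosome 2, HADHA on the minus strand at 26190635 to 26244726 and HADHB on the plus strand at 26243170 to 26290468 (GRCh38, GENCODE release 29). By these coordinates the annotated spans of the 2 genes overlap. In the RefSeq promoter table (GRCh38.p14), 306 bases separate the starts used there. The 250 bases before the HADHA start, chr2:26244633-26244882 on the minus strand, share 194 bases with the same window of HADHB, and the HADHB start follows 56 bases beyond them. This stretch is printed because it lies upstream of both starts. Its part in the values of these genes was not tested. The promoter windows of ETFA (chr15:76311470-76311719, minus strand) and of the outer of 2 listed starts of ETFB (chr19:51366389-51366638, minus strand) are printed because these subunits of one dimer differed most. Capitals mark matches, on either strand, to CCAAT, a core read by the factor NF-Y, to GGGCGG, which SP1 reads, or to TGCGCA, which forms part of the site of NRF1.
HADHA: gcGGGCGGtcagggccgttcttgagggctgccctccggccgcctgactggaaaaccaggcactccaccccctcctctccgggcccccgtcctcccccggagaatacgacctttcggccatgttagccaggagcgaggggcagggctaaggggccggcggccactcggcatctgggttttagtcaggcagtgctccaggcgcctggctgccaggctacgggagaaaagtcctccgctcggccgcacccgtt
ETFA: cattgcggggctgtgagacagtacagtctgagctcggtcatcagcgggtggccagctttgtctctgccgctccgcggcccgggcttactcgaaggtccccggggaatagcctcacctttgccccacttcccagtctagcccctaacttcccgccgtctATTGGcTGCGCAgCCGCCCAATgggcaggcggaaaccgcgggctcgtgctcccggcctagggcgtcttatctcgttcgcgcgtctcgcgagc
ETFB: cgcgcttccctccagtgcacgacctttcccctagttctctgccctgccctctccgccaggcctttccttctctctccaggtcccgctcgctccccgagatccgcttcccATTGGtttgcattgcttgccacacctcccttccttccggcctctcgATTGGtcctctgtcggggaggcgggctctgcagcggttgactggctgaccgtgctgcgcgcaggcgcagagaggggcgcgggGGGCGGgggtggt

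Besides those letters, AGGTCA, a nuclear receptor site, AAGGTCA, its extended form that contains it, and CACGTG, the E-box, were searched on both strands in all 11 windows listed for 9 of the 10 genes. ETFDH was not matched. These searches gave no match in the 11 windows. Of the 35116 windows of the same length in the table, AGGTCA occurs in 12.1%, its extended form in 3.44% and the E-box in 6.34%. CCAAT was found 2 times each in the ETFA and outer ETFB windows, against 32.0% of all windows with at least 1 match. In ETFA, 1 of its copies overlaps a GGGCGG match read on the other strand, and a TGCGCA lies just before it; 6.89% of all windows hold TGCGCA. The letters GGGCGG were present in 8 of the 11 windows, against 42.6% overall. These windows are not independent: the HADHA match lies in the bases shared with HADHB and counts for both genes. ETFB contributes 2 windows, each with a match. The median G and C content was 65.6% in the 11 windows and 58.0% in the table. Letters in a window do not show binding.

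CPT1A, on chromosome 11 at 68754620 to 68844410 (minus strand), attaches long-chain acyl groups to carnitine at the outer membrane. It stood at 85.5, 91.8 and 94.5 CPM in PBS and at 83.2, 76.0 and 78.8 CPM in lactic acid. The groups did not overlap, though the highest treated library came close to the lowest control. CPT1A fell by 12.5% (log2 fold change −0.19, 95% interval −0.30 to −0.090, edgeR adjusted p = 0.00755). CPT2, at 53196429 to 53214197 on chromosome 1 (plus strand), takes the acyl group back to CoA at the inner membrane. Its values were 15.1, 13.0 and 12.8 CPM in PBS and 13.5, 13.3 and 12.2 CPM in lactic acid, so the groups overlapped. With 437 to 565 counts per library, counting alone gave an error of about 4.50%, and the log2 fold change of −0.065 had an interval of −0.26 to 0.13 (edgeR adjusted p = 0.622). Omitting PBS 1, PBS 2, PBS 3 or lactic acid 3 moved the CPT2 value to 0.012, −0.10, −0.12 or −0.028.

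ACADVL, which opens the cycle for very long and long chains, was the most abundant transcript of the set in PBS. It lies on chromosome 17 at 7217125 to 7225273 (plus strand). PBS libraries held 281, 288 and 289 CPM and lactic acid libraries 247, 247 and 241. Every treated library was below every control, with an SD of 4.23 and 3.73 CPM in the groups. ACADVL fell by 14.3% (log2 fold change −0.22, SE 0.032, edgeR adjusted p = 0.000213). DLG4, which runs on the opposite strand and shares 1.75% of the annotated exon bases of ACADVL, had a log2 fold change of −0.24 (edgeR adjusted p = 0.00353) at 838 to 1107 counts, against 8805 to 11457 for ACADVL. Whether the reads were counted by strand is not given in the sources used here. ACADM, the medium-chain dehydrogenase on chromosome 1 at 75724347 to 75787575 (plus strand), gave 39.1, 39.9 and 39.8 CPM in PBS and 39.5, 38.3 and 39.1 CPM in lactic acid. The groups overlapped, and the log2 fold change was −0.024, with an interval of −0.11 to 0.061 (edgeR adjusted p = 0.676). On the FPKM scale the sign was positive, at 0.022 for log2(FPKM + 1). RABGGTB, on the same strand, shares 3.28% of the ACADM exon bases and had a log2 fold change of −0.12 (edgeR adjusted p = 0.0373).

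HADHA carries the hydratase and hydroxyacyl-CoA dehydrogenase of the trifunctional protein, and HADHB its thiolase. HADHA stood at 192, 197 and 185 CPM in PBS and at 208, 197.0 and 206 CPM in lactic acid. The second library of each group lay almost together, at 196.8 and 197.0 CPM. HADHB stood at 137, 134 and 129 CPM in PBS and at 149, 139 and 141 in lactic acid. For both genes every treated library was above every control in CPM, and on the FPKM scale the groups overlapped. Neither passed the test: the log2 fold changes were 0.089 (95% interval 0.0065 to 0.17, edgeR adjusted p = 0.0884) and 0.10 (0.013 to 0.19, adjusted p = 0.0720). On log2(FPKM + 1) the HADHA and HADHB values were 0.043 and 0.045.

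ACAA2, a thiolase that releases acetyl-CoA from shorter chains, lies on chromosome 18 at 49782167 to 49813960 (minus strand). It gave 75.5, 73.5 and 69.0 CPM in PBS and 66.7, 65.9 and 67.6 CPM in lactic acid. The groups did not overlap, with a gap of little more than 1 CPM between the third PBS library and the third lactic acid library. ACAA2 fell by 8.11% (log2 fold change −0.12, SE 0.040, edgeR adjusted p = 0.0335). Omitting PBS 3 kept the call, whereas omitting any of the other 5 libraries (PBS 1, PBS 2, lactic acid 1, lactic acid 2 or lactic acid 3) took it away, with adjusted p from 0.0534 to 0.0898. On log2(FPKM + 1) the ACAA2 value was −0.19.

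ETFA, on chromosome 15 at 76215355 to 76311472 (minus strand), and ETFB, on chromosome 19 at 51345169 to 51366418 (minus strand), encode the alpha and beta subunits of the flavoprotein. ETFA gave 189, 187 and 181 CPM in PBS and 196, 185 and 195 CPM in lactic acid. These values overlapped, and the log2 fold change was 0.048 (95% interval −0.034 to 0.13, edgeR adjusted p = 0.358). Omitting PBS 3, lactic acid 1 or lactic acid 3 gave 0.024, 0.031 or 0.031. ETFB gave 56.0, 60.0 and 58.1 CPM in PBS and 42.2, 47.5 and 44.3 CPM in lactic acid. Every treated library was below every control by a wide margin. ETFB fell by 22.9% (log2 fold change −0.38, 95% interval −0.48 to −0.27, edgeR adjusted p = 9.53e-05), the furthest from 0 among the 10 genes. ETFDH, on chromosome 4 at 158672125 to 158709623 (plus strand), passes the electrons on to ubiquinone. Its values were 14.4, 13.1 and 12.02 CPM in PBS and 12.8, 11.4 and 11.04 CPM in lactic acid, with overlap, while in FPKM every treated library lay below every control. At 414 to 487 counts per library its log2 fold change of −0.16 had an interval of −0.37 to 0.047 (edgeR adjusted p = 0.213), and omitting PBS 1 gave −0.10. PPID, on the opposite strand, shares 10.9% of the ETFDH exon bases and fell with a log2 fold change of −0.14 (edgeR adjusted p = 0.0445). C4orf46, also on the opposite strand, shares 2.92% of them and fell as well (−0.20, edgeR adjusted p = 0.00703).

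**Figure D2:**
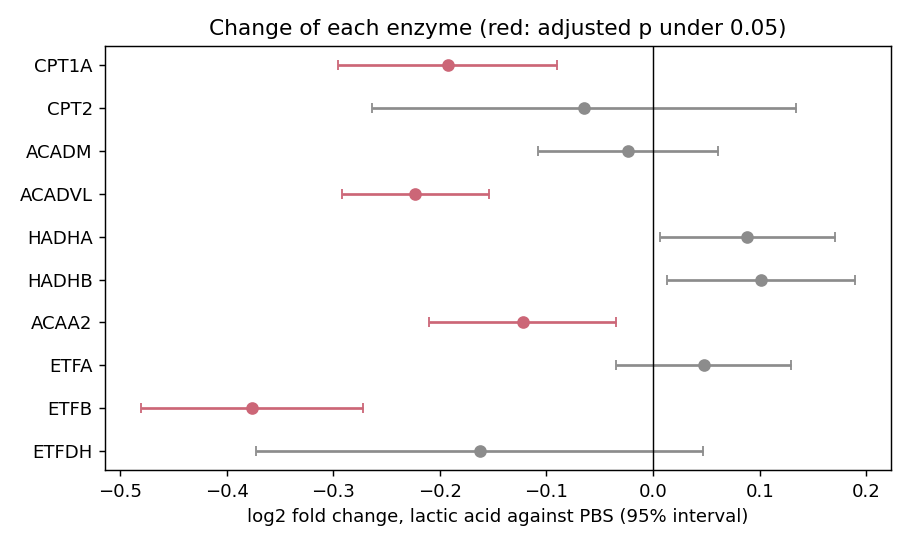
Log2 fold change of each enzyme between lactic acid and PBS (horizontal axis) with its 95% interval from edgeR; red marks an adjusted p under 0.05. ETFB lies lowest at −0.38, followed by ACADVL at −0.22 and CPT1A at −0.19, and HADHA and HADHB lie on the positive side without passing the test.

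Partners within a step could be compared inside each library, where no scaling between libraries enters. Ratios of counts were formed for 5 pairs, over which p-values were adjusted; with 3 libraries against 3 an exact two-sided permutation test cannot go below 0.1. The ratio of HADHA to HADHB was 1.41, 1.47 and 1.44 in PBS and 1.40, 1.42 and 1.46 in lactic acid. It lay in the same narrow band in both groups, and the log2 difference between groups was −0.012 (exact permutation p = 0.7, adjusted 0.7). The ratio of ETFA to ETFB was 3.38, 3.12 and 3.11 in PBS and 4.64, 3.89 and 4.40 in lactic acid. All 3 treated libraries were above all 3 controls, with a log2 difference of 0.43 (exact permutation p = 0.1, the smallest possible, adjusted 0.167), and 0.47 on FPKM.

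The ratio of ACADVL to ACADM was 7.19, 7.21 and 7.26 in PBS and 6.26, 6.44 and 6.16 in lactic acid. Its log2 difference was −0.20, with no overlap (exact permutation p = 0.1, adjusted 0.167). That of HADHB to ACAA2 was 1.81, 1.82 and 1.87 in PBS and 2.23, 2.11 and 2.08 in lactic acid, a log2 difference of 0.22, also with no overlap (exact permutation p = 0.1, adjusted 0.167). Between CPT1A and CPT2 the ratio ran from 5.65 to 7.41 in PBS and from 5.72 to 6.43 in lactic acid, and the groups overlapped (log2 difference −0.13, exact permutation p = 0.4, adjusted 0.5). Omitting PBS 1, PBS 3 or lactic acid 2 gave −0.25, −0.052 or −0.083.

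**Figure D3:**
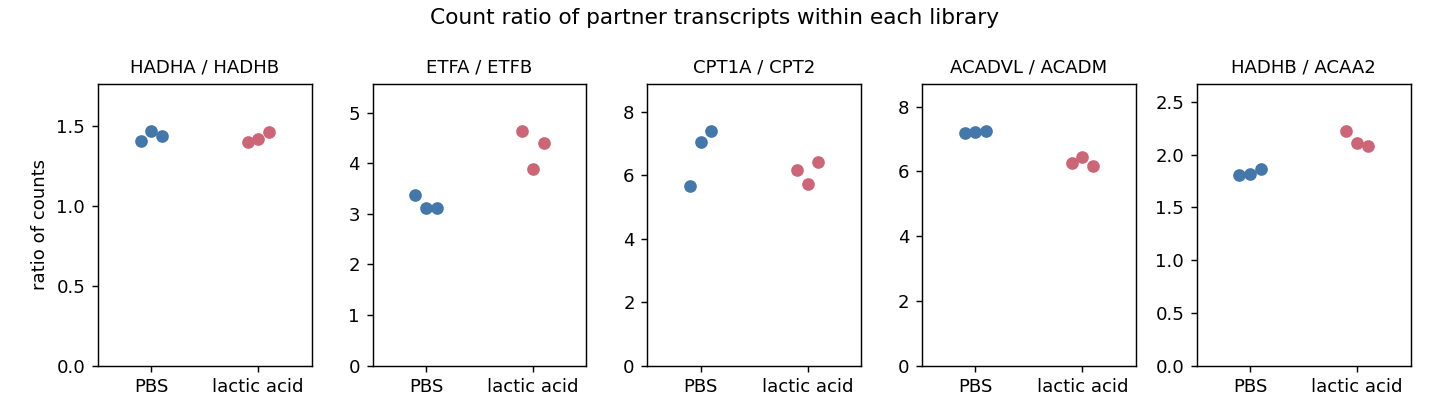
Ratio of deposited counts between 2 partner genes in each library (vertical axes, from 0); points are libraries, 3 per group. ETFA to ETFB lies between 3.11 and 3.38 in PBS and between 3.89 and 4.64 in lactic acid, while HADHA to HADHB lies between 1.40 and 1.47 in both groups.

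Beyond the 10 genes, 9 lists of other pathway genes held 100 tested genes, of which 21 rose and 18 fell, with a median log2 fold change of 0.010. These shares stand beside 18.7% and 16.7% over all genes.

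In carnitine and acyl-CoA supply, 4 of 17 tested genes rose and 5 fell. The acyl-CoA synthetases, which activate fatty acids with CoA before any use, made up most of the rises. ACSL1 went from 51.6, 52.6 and 51.6 CPM in PBS to 85.6, 82.2 and 84.1 CPM in lactic acid, a 1.62-fold rise (edgeR adjusted p = 6.72e-08) with no overlap. ACSL3 rose 1.45-fold, ACSL4 1.32-fold and the thioesterase ACOT13 1.12-fold. ACOT13 missed the threshold when PBS 2, PBS 3, lactic acid 1 or lactic acid 3 was omitted (adjusted p 0.0772 to 0.134). It was also not called on the 3 FPKM scales (adjusted p 0.135 to 0.190). CPT1C, a CPT1 relative best known from neurons, fell from 2.98 ± 0.400 to 1.59 ± 0.0383 CPM (SD, n = 3; log2 fold change −0.90, edgeR adjusted p = 0.00242). SLC27A2, an acyl-CoA synthetase and transporter, FABP5, a fatty acid binding protein, and ACOT9, a mitochondrial thioesterase, fell by 0.26, 0.23 and 0.13 on the log2 scale. The remaining fall was that of CRAT, carnitine acetyltransferase (−0.16), named after its value was seen. CPT1B, the muscle form, and SLC25A20, the carnitine carrier, had log2 fold changes of 0.083 and 0.085 (edgeR adjusted p = 0.512 and 0.602), also named after their values were seen.

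Among 15 tested short-chain and auxiliary matrix enzymes 1 rose, 3 fell and 11 were not called. HADH, the dehydrogenase for short hydroxyacyl chains, fell from 43.1, 42.7 and 40.2 CPM to 37.0, 35.2 and 37.3 CPM (log2 fold change −0.20, edgeR adjusted p = 0.00435), with no overlap. ACAD9, a dehydrogenase relative that helps assemble respiratory complex I, fell with −0.16, and ACAD11, another relative, with −0.45. The treated ACAD11 libraries were spread widely, at 14.2, 9.80 and 18.0 CPM. ACAD11 missed the threshold when PBS 1, PBS 2, PBS 3, lactic acid 1 or lactic acid 2 was omitted (adjusted p 0.0815 to 0.113). DESeq2 and the 3 FPKM scales did not call ACAD11 either. Its log2 fold change was −0.25 without lactic acid 2 and −0.68 without lactic acid 3. ACAD9 missed it when PBS 2 or lactic acid 2 was omitted (adjusted p 0.0668 to 0.0783). MUT, methylmalonyl-CoA mutase, rose 1.15-fold, and was not called on log2(FPKM + 1) with no filter (adjusted p 0.0663). None of the 4 tested dehydrogenases of amino acid breakdown that also feed the flavoprotein was called by edgeR, DESeq2 or limma-voom, and 1 had an unadjusted p under 0.05 on the lower side.

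For FAD supply, flavoprotein upkeep and ubiquinone synthesis, 2 of 12 tested genes rose and 2 fell. FLAD1, which makes FAD, fell (log2 fold change −0.21), as did the ubiquinone methyltransferase COQ3 (−0.42), while the riboflavin transporter SLC52A2 rose 1.15-fold and the ubiquinone hydroxylase COQ7 1.29-fold. All 4 calls depended on single libraries. FLAD1 missed the threshold when PBS 2 or lactic acid 1 was omitted, and COQ3 when PBS 2, lactic acid 1 or lactic acid 3 was. For SLC52A2 these libraries were PBS 1, PBS 2 and lactic acid 2, and for COQ7 they were PBS 2, PBS 3, lactic acid 2 and lactic acid 3. Adjusted p in these fits ran from 0.0535 to 0.0963. COQ7 was also not called on the 3 FPKM scales (adjusted p 0.0889 to 0.184). Nor were FLAD1 and SLC52A2 on that with no filter (0.0988 and 0.0932).

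In the control of malonyl-CoA, 2 of 9 tested genes rose and 2 fell. ACACA and ACACB, the carboxylases that make the CPT1 inhibitor, rose 1.16-fold and 1.21-fold (edgeR adjusted p = 0.00301 and 0.00419); ACACB was not called on the FPKM scales (adjusted p 0.466 to 0.594), nor ACACA on that with no filter (0.0817). Among subunits of AMPK, the kinase that switches the carboxylases off, PRKAB2 (log2 fold change −0.28) and PRKAA2 (−0.17) were lower in lactic acid. PRKAA1, another AMPK subunit, was more abundant in PBS, at a mean of 104 CPM against 27.6 CPM for PRKAA2. It was not called (log2 fold change 0.013, edgeR adjusted p = 0.803). Nor were PRKAB1, PRKAG1, PRKAG2 and MLYCD of the same list. These uncalled genes were named after their values were seen. PRKAA2 missed the threshold when PBS 1, PBS 3, lactic acid 2 or lactic acid 3 was omitted (adjusted p 0.0534 to 0.0885). It was also not called on the 3 FPKM scales (adjusted p 0.0763 to 0.113).

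Regulators of the pathway gave 3 rises and 2 falls among 13 tested. LPIN1, a phosphatidate phosphatase that also coactivates PPAR alpha, rose from 44.4 ± 0.504 to 84.7 ± 3.03 CPM (SD, n = 3), or 1.91-fold by edgeR (edgeR adjusted p = 1.71e-08). PPARD, a nuclear receptor for fatty acids, rose 1.27-fold and NRIP1, a nuclear receptor corepressor, 1.12-fold. NRIP1 was not called on any of the 3 FPKM scales (adjusted p 0.0522 to 0.0596), nor were PPARD and PPRC1 on that with no filter (0.0604 and 0.0503). NRF1, a factor for nuclear genes of mitochondria, and PPRC1, of the PGC-1 family, had log2 fold changes of −0.31 and −0.17 and both fell. NRF1 missed the threshold when PBS 1, PBS 3 or lactic acid 2 was omitted (adjusted p 0.0865 to 0.0958).

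Of 13 genes listed as PPAR targets outside the matrix cycle, 8 were tested, of which 4 rose and 2 fell. Over all tested genes, 18.7% rose and 16.7% fell. PDK4 and UCP3, tested but not called, had log2 fold changes of −0.044 and −0.10 (edgeR adjusted p = 0.736 and 0.722). They were named after their values were seen. PLIN2, the lipid droplet coat protein, rose from 47.6, 45.3 and 48.1 CPM to 90.8, 84.8 and 90.8 CPM, or 1.89-fold (edgeR adjusted p = 3.22e-08). VLDLR, a lipoprotein receptor, rose 1.51-fold and ANGPTL4, a lipase inhibitor, 1.39-fold. UCP2, a carrier of the inner mitochondrial membrane, fell from 28.0, 28.9 and 26.6 CPM to 14.7, 15.1 and 14.9 CPM (log2 fold change −0.90, edgeR adjusted p = 8.77e-07). The other fall was that of TXNIP, an arrestin relative with 61 to 109 counts per PBS library and 4 to 6 per lactic acid library. TXNIP passed the filter on low counts through its PBS libraries alone, so its fitted log2 fold change of −4.06 is imprecise.

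The peroxisomal branch, which shortens very long and branched chains, gave 4 rises and 1 fall among 18 tested genes. PHYH, which starts the breakdown of phytanic acid, rose 1.29-fold (edgeR adjusted p = 3.42e-05). ACAA1, the peroxisomal thiolase, rose 1.11-fold and SCP2, a sterol carrier and thiolase, 1.08-fold. ACAA1 missed the threshold when PBS 1, PBS 2, PBS 3, lactic acid 1 or lactic acid 2 was omitted (adjusted p 0.0507 to 0.109). SCP2 missed it when PBS 2, PBS 3, lactic acid 2 or lactic acid 3 was omitted (adjusted p 0.111 to 0.178). Its call was also lost with median-ratio factors, library totals alone, no filter, the replicate block and log2(FPKM + 1) with no filter. That of ACAA1 was also lost with library totals alone and on the 3 FPKM scales. DESeq2 called neither ACAA1 nor SCP2 and gave 2 rises and 1 fall. EHHADH, the peroxisomal bifunctional enzyme, fell with a log2 fold change of −0.39 (edgeR adjusted p = 0.00329).

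Of 5 tested ketone body enzymes 2 rose and 1 fell. OXCT1, which reactivates ketone bodies for use, fell from 15.8 ± 1.16 to 11.2 ± 0.841 CPM (SD, n = 3; log2 fold change −0.49, edgeR adjusted p = 0.00124). AACS, a cytosolic acetoacetate-activating enzyme, rose 1.32-fold.

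A list for mitochondrial content gave 3 rises and 8 falls among 23 tested genes, with a median log2 fold change of −0.042, beside 18.7% rises and 16.7% falls over all genes. PHB2, a prohibitin, TOMM40, an import pore, POLRMT, the mitochondrial RNA polymerase, and TUFM, a mitochondrial elongation factor, fell with log2 fold changes of −0.29, −0.30, −0.24 and −0.19. VDAC2, an outer membrane channel, and TOMM20, an import receptor, rose 1.12-fold and 1.11-fold, and LONP1, a matrix protease, rose 1.09-fold. LONP1 missed the threshold on omitting PBS 1, PBS 3, lactic acid 1, lactic acid 2 or lactic acid 3 (adjusted p 0.0526 to 0.180). Library totals alone and the 3 FPKM scales also lost its call (adjusted p 0.0878 to 0.267). The citrate synthase gene CS, chosen after its value was seen, had a log2 fold change of −0.015 (edgeR adjusted p = 0.791). The part of these genes in the falls of ETFB and ACADVL was not tested.

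**Figure D4:**
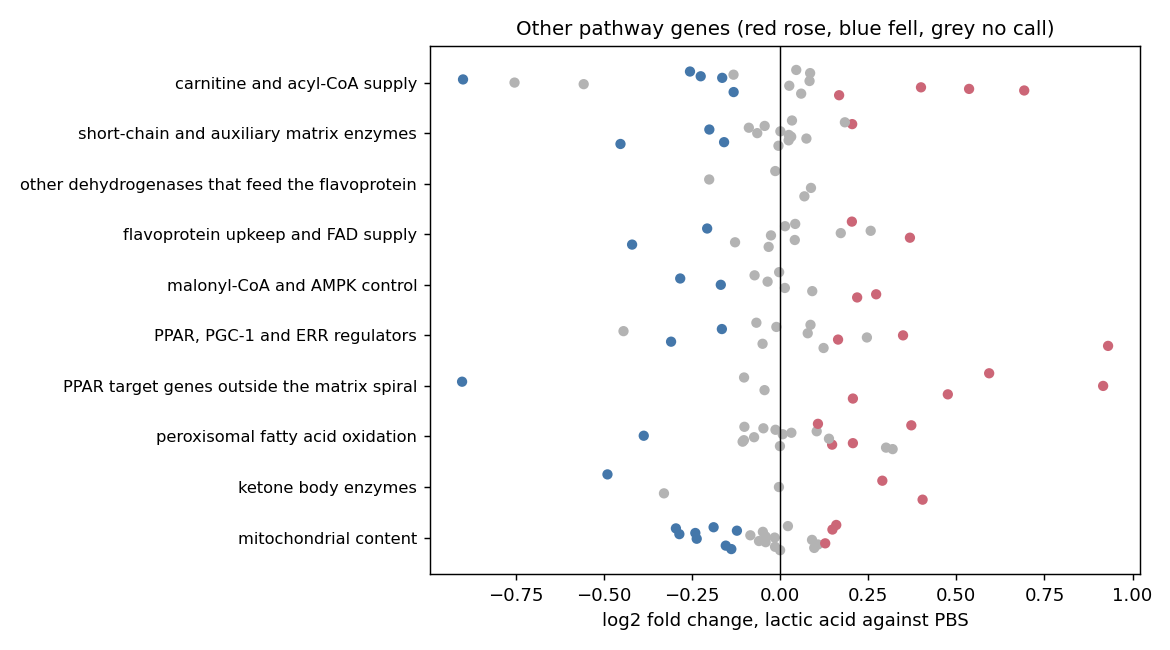
Log2 fold change between lactic acid and PBS (horizontal axis) for every tested gene of the 9 pathway lists and the mitochondrial content list; each point is a gene, red where it rose, blue where it fell and grey where it was not called. TXNIP, at −4.06, lies beyond the axis and is left out; LPIN1 at 0.93 and PLIN2 at 0.92 are furthest right.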

How the data were processed

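Poly(A) RNA of 6 libraries was read as 150 bp pairs, per the labels. The authors deposited whole-number counts per gene and FPKM per gene; HISAT2, StringTie, DESeq2 and GRCh38 are named, without versions or roles, per the submitters' processing notes. The annotation, the strand setting and the treatment of multiply mapped reads: not given in the sources used here. Columns named NS were matched to the PBS libraries through library names in the labels. Of the 23827 rows of counts, 19974 carried an Ensembl identifier, and all of these matched GENCODE release 29. The remaining rows had no such identifier to match. Replicates differed beyond counting noise (chi-square 6.27 to 9.11 per degree of freedom).

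Counts were fitted with edgeR 4.0.16 in R 4.3.3 (quasi-likelihood F test, two-sided, TMM factors, group as the only term) after filterByExpr (minimum count 10, minimum total 15), and p-values were adjusted by Benjamini-Hochberg over all 15474 genes tested. CPM use TMM-scaled library sizes; SE is the log2 fold change over the square root of F. DESeq2 1.42.0 and limma 3.58.1 served as alternatives. Genes outside the 10 were named when called at a mean of at least 1 CPM, up to 4 per list and direction by p; others are marked. Some genes that the rule names are not reported here. The members and lists were chosen with earlier results of these data known.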

Additional observations from a re-analysis of the deposited data

How the results depend on the processing

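The falls of CPT1A, ACADVL and ETFB were called under all 16 alternatives: other scaling factors, DESeq2, limma-voom, other filters, the FPKM scales, the replicate block and each library left out. ACAA2 was called in 10 of them, which gave 4 falls among the 10 enzymes, and 3 falls in the other 6; besides the omissions named above, its call was lost on log2(FPKM + 1) with no filter (adjusted p 0.0507). No alternative gave a rise. Reversed signs occurred only near 0: ACADM had 0.022, 0.023 and 0.022 on log2(FPKM + 1), log2(FPKM + 0.1) and log2(FPKM + 1) with no filter, CPT2 ran from −0.12 to 0.012 with a library left out, and the HADHA to HADHB log2 difference from −0.032 to 0.0036. Rises over all genes numbered 2892, and 1803, 1798 and 1618 on those 3 FPKM scales, with 9 in place of 21 rises among the other pathway genes on the last. Of 38 genes of the 9 pathway lists that the rule selects, 26 were called in every fit with a library left out and 17 under all 16 alternatives; CPT1C and TXNIP, with no value on the 2 filtered FPKM scales, were called in the other 14. Of 7 such genes for mitochondrial content, 6 were called under all 16. Same-numbered libraries deviated from their group means with correlations of −0.158, −0.224 and 0.268 over 9956 genes. Deviations from a mean of 3 libraries are tied to one another, so these correlations cannot decide whether the numbers pair libraries. Between libraries of different number the correlations ran from −0.302 to 0.414, the highest for PBS 2 with lactic acid 1. With the replicate block, which joins libraries by number only, 2886 genes rose and 2596 fell, and 4 of the 10 enzymes fell. The cause of these differences was not tested. The intervals of CPT2 and ETFDH are the widest of the 10; counting alone gave them errors of 4.50% and 4.66%, and the SD over PBS libraries was 9.60% and 8.87% of the mean.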
